A study of Mus musculus with 12 samples.

Results

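Bile acid synthesis, conjugation, transport and signalling in the liver were examined through 10 genes, chosen by gene name out of the 55385 annotated features measured by RNA-Seq in mouse liver. They are Cyp7a1, Cyp8b1, Cyp27a1, Cyp7b1, Slc27a5, Baat, Slc10a1, Abcb11, Nr1h4 and Nr0b2, and all 10 were well expressed. The 12 livers came from male C57BL/6 mice injected at 7 weeks of age with adenoviruses at a total of 500000000 plaque-forming units and killed 7 days later, and formed 3 groups of 4 mice. Ad-Ctrl animals received the Lac and pAdV5 control viruses, Ad-shmGULL mice a virus carrying sh-mGULL (a short hairpin RNA against the mouse long noncoding RNA mGULL) with pAdV5, and Ad-shmGULL+hGULL mice sh-mGULL with a virus expressing the human counterpart, hGULL. Thus every group, controls included, carried adenovirus, and every measurement was made on whole liver tissue. The study picked GULL in part because it responded to an agonist of FXR, the bile acid receptor, which is the reason to look at the genes downstream of that receptor. The levels of mGULL and hGULL were not analysed here. The labels number the 4 libraries of a group without stating that each is a separate animal. They are called mice 1 to 4 here, and p-values measure only the spread between them.

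Bile acids are made from cholesterol in hepatocytes. In the classical pathway Cyp7a1 catalyzes the first and rate-limiting step and Cyp8b1 directs the product toward cholic acid, and in the alternative pathway Cyp27a1 oxidizes the sterol side chain before Cyp7b1 hydroxylates the resulting oxysterol. Slc27a5 activates bile acids with coenzyme A and Baat joins them to taurine or glycine. Slc10a1 (NTCP) takes conjugated bile acids up from portal blood and Abcb11 (BSEP) pumps them into bile. Nr1h4 encodes the nuclear receptor FXR, which binds bile acids, pairs with RXR and switches on Nr0b2 (SHP), a corepressor of Cyp7a1, and Abcb11.

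FXR with RXR classically binds an inverted repeat of the half-site AGGTCA spaced by 1 base, written AGGTCANTGACCT. The 250 bases before the transcription start of Abcb11 and Nr0b2, the textbook direct targets of FXR among the 10 genes, are given as the RefSeq promoter sequences of GRCm38.p6, 5′ to 3′ on the strand of the gene. The Abcb11 stretch is chr2:69342617-69342866 on the minus strand and the Nr0b2 stretch is chr4:133553126-133553375 on the plus strand. Capitals mark a match to the inverted repeat with at most 1 mismatch on either strand.
Abcb11: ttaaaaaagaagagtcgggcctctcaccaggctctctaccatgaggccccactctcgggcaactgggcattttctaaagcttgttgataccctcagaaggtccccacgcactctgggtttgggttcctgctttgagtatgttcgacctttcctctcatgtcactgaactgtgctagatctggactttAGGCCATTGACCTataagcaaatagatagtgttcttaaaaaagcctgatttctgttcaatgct
Nr0b2: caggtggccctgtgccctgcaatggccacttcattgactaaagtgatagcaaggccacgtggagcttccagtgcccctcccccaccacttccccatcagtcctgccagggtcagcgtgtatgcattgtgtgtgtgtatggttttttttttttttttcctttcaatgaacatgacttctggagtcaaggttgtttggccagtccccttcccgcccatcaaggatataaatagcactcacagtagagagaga
The Abcb11 match lay 63 to 51 bases before the start and had 11 of 12 letters in place. It contains an exact half-site on its right-hand side, so the half-site and this match overlap. Of 32544 distinct mouse promoter sequences, 26 held such a match in the same 250 bases (0.0799%), whereas 14% held an exact half-site. The Nr0b2 window held no match to the inverted repeat at this limit, which concerns these letters in this window only. Promoter sequences were found for 6 of the 10 genes, and the remaining 4 are Cyp7a1, Cyp7b1, Slc27a5 and Baat.

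Expression is given in TPM (transcript abundance scaled to a fixed total), which are scaled for transcript length and sum to 1000000 in every library, so levels may be compared between genes, but read depth is unknown. In Ad-Ctrl livers the mean levels ran from Slc27a5 at 804 TPM through Cyp8b1 (756), Cyp27a1 (696), Cyp7b1 (582), Slc10a1 (432), Baat (391), Cyp7a1 (255), Abcb11 (237) and Nr1h4 (200.1) to Nr0b2 at 68.1 TPM. Of the 9 neighbouring pairs in this order, 2 had no overlap between their 4 mice, Baat above Cyp7a1 and Nr1h4 above Nr0b2. Cyp7b1 had rank 4 of the 10 in Ad-Ctrl, rank 6 in Ad-shmGULL and rank 5 in Ad-shmGULL+hGULL, and Nr0b2 was lowest in each group.

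The genes differed in how much mice of the same group varied. On the log2(TPM + 1) scale the within-group SD was 0.55 for both Nr0b2 and Cyp7a1, 0.38 for Cyp7b1 and 0.08 for Baat. Among the 2405 genes whose mean reached 50 TPM, 97.9% had a smaller SD than Nr0b2, 97.8% a smaller one than Cyp7a1 and 93.6% a smaller one than Cyp7b1, whereas 4.74% had a smaller one than Baat. Ad-shmGULL mouse 1 had the lowest level of all 12 mice for 5 members (Cyp7a1, Cyp8b1, Baat, Slc10a1 and Nr1h4), and Ad-shmGULL mouse 2 for 4 more (Cyp27a1, Cyp7b1, Slc27a5 and Nr0b2). Mouse 1 also lay farthest from its group over all genes tested, with a root mean square distance of 0.47 on the log2 scale from the mean of the other 3 mice, compared with 0.27 to 0.43 for the other libraries.

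**Figure D1:**
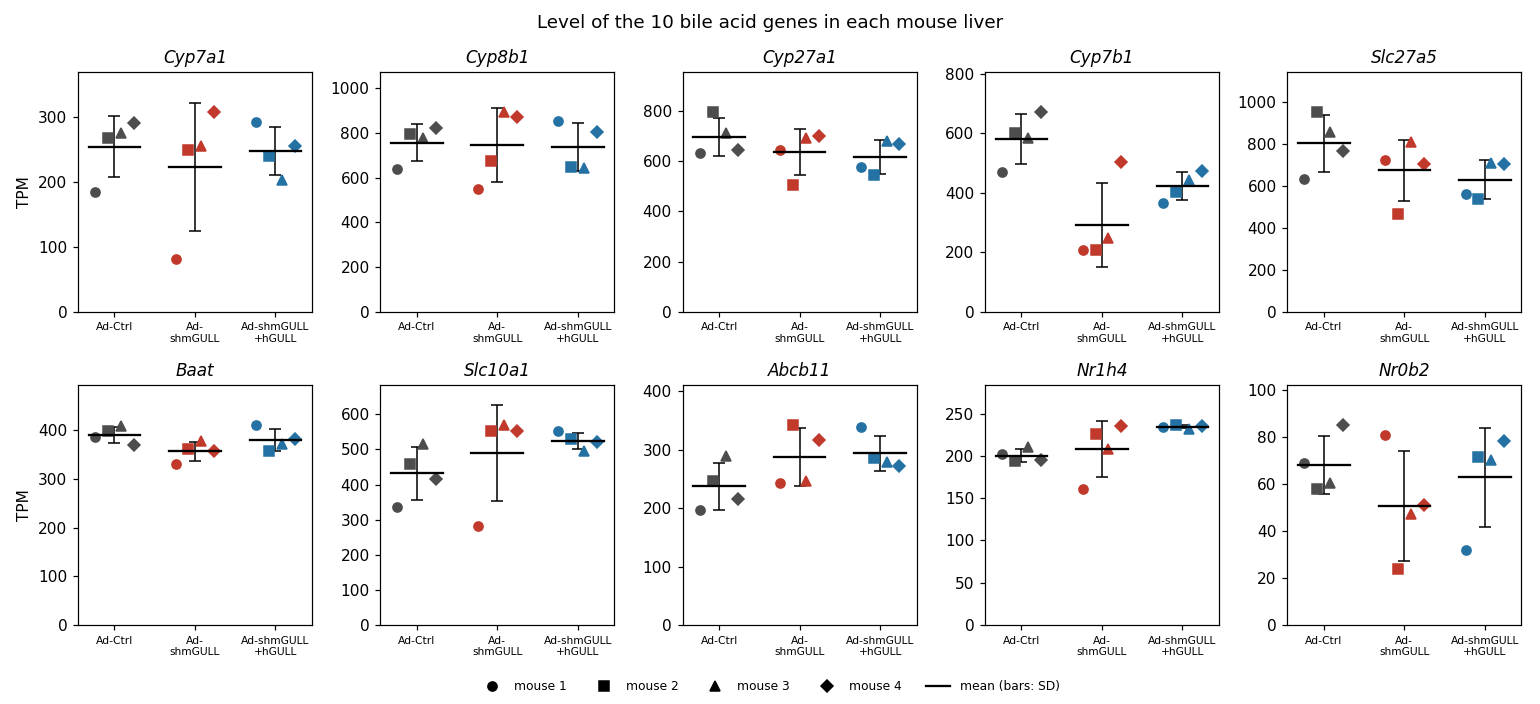
Each panel plots the TPM of 1 gene (vertical axis, from 0) in the 4 mice of Ad-Ctrl (grey), Ad-shmGULL (red) and Ad-shmGULL+hGULL (blue), with the marker shape giving the mouse number, horizontal lines the means and bars the SD. Cyp7b1 falls from a mean of 582 to 291 TPM after knockdown with mouse 4 apart at 503 TPM, and the circle of Ad-shmGULL mouse 1 is the lowest point for Cyp7a1, Cyp8b1, Baat, Slc10a1 and Nr1h4.

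Cyp7b1 was the single member that passed the study's threshold (given below) after knockdown of mGULL, with a mean at 50.1% of the control level. It (chr3:18071944-18243890, GRCm38.p6) was at 469, 600.1, 585 and 672 TPM in Ad-Ctrl mice 1 to 4, at 209, 206, 247 and 503 TPM in Ad-shmGULL mice, and at 367, 403, 444 and 474 TPM in Ad-shmGULL+hGULL mice. Of the Ad-shmGULL mice, 3 lay below every other mouse, the fourth lay within the control range, and 3 of the 4 Ad-shmGULL+hGULL mice lay below all controls. The group means were 582 ± 84.1, 291 ± 142 and 422 ± 47.0 TPM (SD, n = 4). In a bulk sample, fewer cells expressing a gene and less RNA per cell cannot be told apart.

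For Cyp7b1, Ad-shmGULL was lower than Ad-Ctrl by a log2 fold change of -1.09 (SE 0.24, 95% interval -1.60 to -0.58, limma P = 0.000555, adjusted p = 0.0306 over 16378 genes, exact permutation p = 0.0571). At the threshold used by the study, an unadjusted P below 0.05 and a log2 fold change of more than 0.5 in size, 1 of the 10 members was called in this comparison, compared with 7.65% of all genes tested, so the count for the members was near that background. At an adjusted p under 0.05 it was also 1 of 10, compared with 3.23% of all genes. The exact permutation test is two-sided, and with 4 mice against 4 it cannot go below p = 0.0286. Cyp7b1 passed the study's threshold in each of the 20 alternative analyses, but its adjusted p ranged from 0.00240 to 0.113 and was under 0.05 in 12. Without Ad-shmGULL mouse 4 the log2 fold change was -1.39 (adjusted p = 0.00240), and without Ad-shmGULL mouse 1 it was -0.96 (adjusted p = 0.0629).

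With hGULL added, Cyp7b1 was higher than in Ad-shmGULL by 0.63 on the log2 scale (SE 0.24, 95% interval 0.12 to 1.15, limma P = 0.0199, adjusted p = 0.411, exact permutation p = 0.143). It was again the 1 member of 10 past the study's threshold, with 3% of all genes called, and no gene of the table had an adjusted p under 0.05 (1757 had an unadjusted P under 0.05). This call was lost without Ad-shmGULL mouse 1 (0.51), without Ad-shmGULL mouse 2 (0.50), without Ad-shmGULL+hGULL mouse 4 (0.57), and when libraries were rescaled by median ratios (0.54) or weighted by quality (0.33). Ad-shmGULL+hGULL differed from Ad-Ctrl by -0.46 (SE 0.24, 95% interval -0.97 to 0.06, limma P = 0.0768, adjusted p = 0.245), and 7.49% of all genes were called in that comparison against 0 of the 10 members (2 with an unadjusted P under 0.05 in limma, 1 in the exact permutation test). Over all 16378 genes tested, 4149 had an unadjusted P under 0.05 in limma in that comparison. None of the members had an adjusted p under 0.05 there, compared with 2.15% of all genes. Of 20 alternative analyses, 1 gave Cyp7b1 an adjusted p under 0.05 in that comparison. It was the limma fit of only the 2 groups compared (adjusted p = 0.0462), where 1693 genes were under 0.05.

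All 3 comparisons rest on the same 12 libraries and share groups, so their values for a gene are not independent. The median of all genes tested was itself displaced upward, by 0.09 in Ad-shmGULL minus Ad-Ctrl, 0.09 in Ad-shmGULL+hGULL minus Ad-shmGULL and 0.17 in Ad-shmGULL+hGULL minus Ad-Ctrl. Relative to that median, Cyp7b1 stood at -1.18, 0.54 and -0.63 in these 3 comparisons. Rescaling by median ratios brought the last median to -0.01, and Cyp7b1 then passed the study's threshold in Ad-shmGULL+hGULL minus Ad-Ctrl as well, at -0.66 (limma adjusted p = 0.284).

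**Figure D2:**
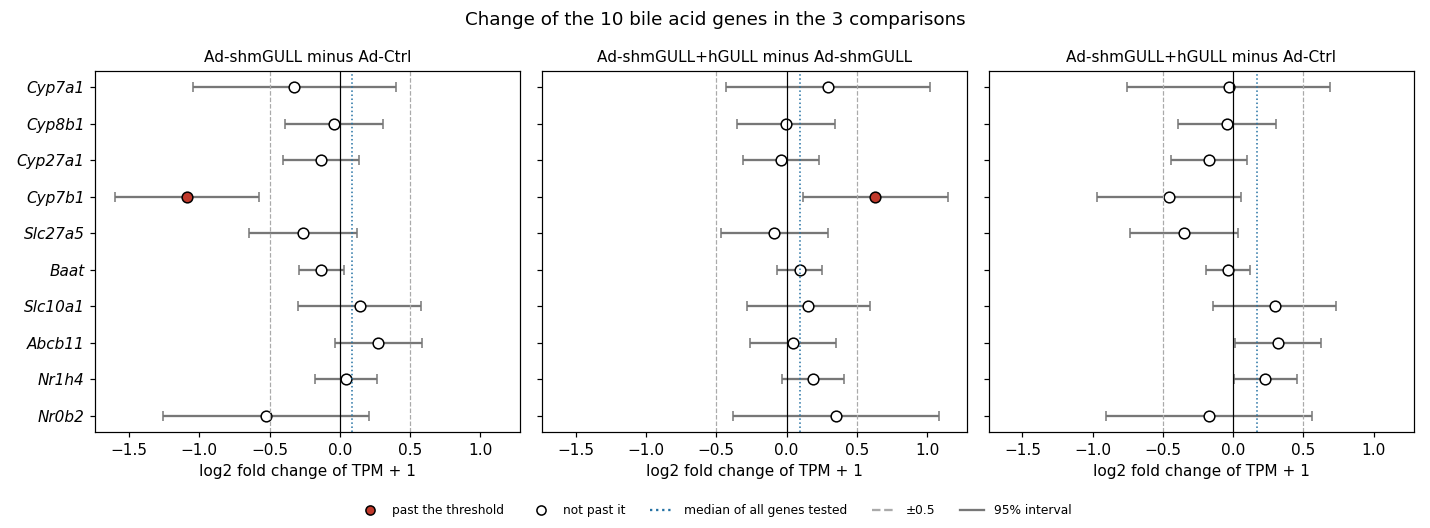
Points give the log2 fold change of TPM + 1 (horizontal axis) of each of the 10 genes (vertical axis) in the 3 comparisons, with 95% intervals from limma, filled red where the study's threshold was passed. Cyp7b1 is filled in the first 2 panels (-1.09 and 0.63) and no gene is filled in the third, while the widest intervals belong to Cyp7a1 and Nr0b2 and the narrowest to Baat.

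Cyp27a1 (chr1:74713148-74737897), the enzyme one step before Cyp7b1, was at 631, 797, 713 and 644 TPM in Ad-Ctrl, at 645, 505, 694 and 702 TPM in Ad-shmGULL, and at 575, 547, 682 and 668 TPM in Ad-shmGULL+hGULL mice. The 3 groups overlapped, with log2 fold changes of -0.14 (95% interval -0.40 to 0.13), -0.04 (-0.31 to 0.23) and -0.17 (-0.44 to 0.10) in the order used above. None passed the threshold, and the intervals leave out a change as large as that of Cyp7b1 after knockdown. The ratio of Cyp7b1 to Cyp27a1 within a mouse, which no rescaling of a library can alter and which was chosen after the values were seen, was 0.743 to 1.04 in Ad-Ctrl, 0.324 to 0.716 in Ad-shmGULL and 0.638 to 0.736 in Ad-shmGULL+hGULL mice.

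All 4 Ad-shmGULL and all 4 Ad-shmGULL+hGULL mice thus had less Cyp7b1 per Cyp27a1 than any control mouse. The mean log2 ratio was 0.96 lower in Ad-shmGULL and 0.29 lower in Ad-shmGULL+hGULL than in Ad-Ctrl (exact two-sided permutation p = 0.0286 for each, the smallest possible, unadjusted). Because the ratio was chosen after Cyp7b1 was seen to be low, these p add no separate support for a Cyp7b1 change. Cyp7b1 alone gave an exact permutation p = 0.0571 in each of these comparisons. Of single genes tested, 8.99% and 22.3% were fully apart in them, in either direction. Between Ad-shmGULL+hGULL and Ad-shmGULL it differed by 0.67 (exact permutation p = 0.114), with Ad-shmGULL mouse 4 at 0.716 inside the range of the Ad-shmGULL+hGULL mice. In all, 4 pairs of members were compared in 3 comparisons each, and the remaining 9 tests gave permutation p from 0.143 to 0.943.

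**Figure D3:**
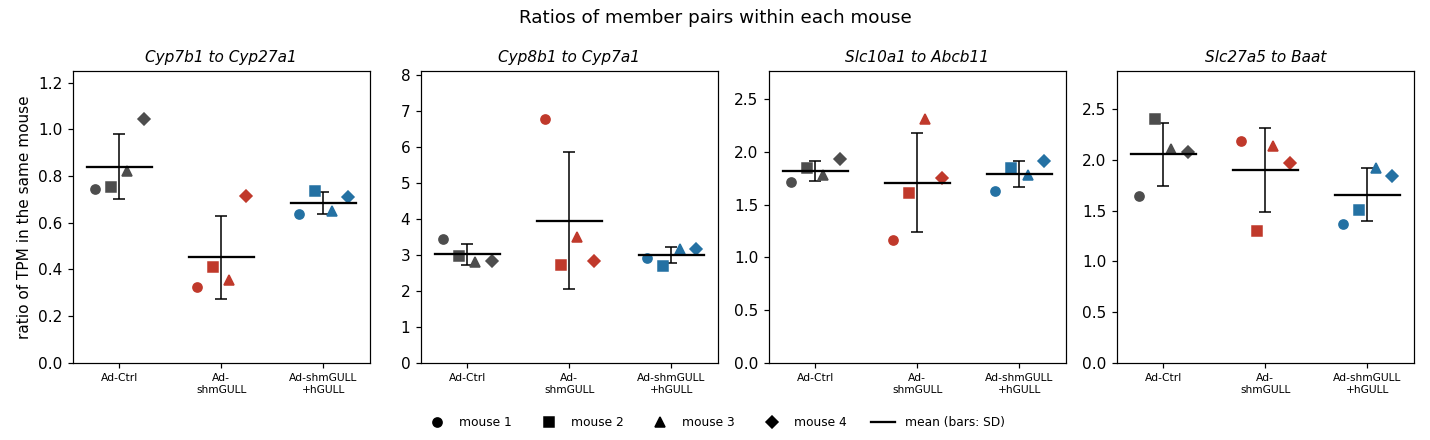
Each panel plots the ratio of the TPM of 2 genes in the same mouse (vertical axis, from 0, no unit) for the 4 mice of each group, with means and SD bars. For Cyp7b1 to Cyp27a1, a ratio chosen after the values were seen, all 8 mice given sh-mGULL lie below the lowest control at 0.743. For the other 3 pairs the groups overlap.

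The rate-limiting enzyme of the classical pathway was not detectably changed, and its mean in Ad-shmGULL was lowered by 1 liver. Cyp7a1 (chr4:6265612-6275632) was at 185, 268, 275 and 290.1 TPM in Ad-Ctrl, at 80.9, 249.8, 255 and 308 TPM in Ad-shmGULL and at 293, 239.8, 203 and 255 TPM in Ad-shmGULL+hGULL mice. Apart from Ad-shmGULL mouse 1 at 80.9 TPM, the groups covered much the same range. Ad-shmGULL minus Ad-Ctrl was -0.33 on the log2 scale (SE 0.33, 95% interval -1.05 to 0.40, limma adjusted p = 0.638) and 0.11 without that mouse (adjusted p = 0.733). Ad-shmGULL+hGULL minus Ad-shmGULL was 0.30 (95% interval -0.43 to 1.02) and -0.14 without it, and Ad-shmGULL+hGULL minus Ad-Ctrl was -0.03 (-0.75 to 0.69).

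Cyp8b1 (chr9:121914356-121916305), which sets the share of cholic acid, was at 637, 795, 775 and 819 TPM in Ad-Ctrl, at 547, 675, 894 and 869 TPM in Ad-shmGULL, and at 854, 647, 642 and 806 TPM in Ad-shmGULL+hGULL mice. Ad-shmGULL mice held both the lowest and the highest value of the 12, around nearly equal means (756 ± 81.9, 746 ± 165 and 737 ± 109 TPM, SD, n = 4). The log2 fold changes were -0.04, 0.00 and -0.04, each with a 95% interval within 0.40 on either side of 0. The ratio of Cyp8b1 to Cyp7a1 was 2.81 to 3.45 in Ad-Ctrl and 2.70 to 3.17 in Ad-shmGULL+hGULL mice. In Ad-shmGULL it was 2.70 to 3.50 in mice 2 to 4 and 6.76 in mouse 1, where Cyp7a1 was low.

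Both conjugation genes had lower means after knockdown without passing the threshold. Slc27a5 (chr7:12988346-12998192) was at 635, 954, 859 and 769 TPM in Ad-Ctrl, at 724, 469, 808 and 704 TPM in Ad-shmGULL and at 561, 538, 712 and 706 TPM in Ad-shmGULL+hGULL mice. In the last group 2 mice lay below every control, and the log2 fold changes were -0.26 (95% interval -0.64 to 0.12), -0.09 (-0.47 to 0.30) and -0.35 (-0.73 to 0.03, limma adjusted p = 0.233, exact permutation p = 0.114). With libraries rescaled by median ratios the last value became -0.55 and passed the study's threshold (adjusted p = 0.316).

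Baat (chr4:49489416-49507915), the member with the smallest within-group SD pooled over the 3 groups, was at 387, 398, 408 and 369.8 TPM in Ad-Ctrl, at 331, 361, 378 and 357 TPM in Ad-shmGULL and at 411, 357, 372 and 383 TPM in Ad-shmGULL+hGULL mice. Of the Ad-shmGULL mice, 3 lay below all controls, by a small amount. Ad-shmGULL minus Ad-Ctrl was -0.13 (95% interval -0.29 to 0.03, limma adjusted p = 0.338, exact permutation p = 0.0571), and the other comparisons gave 0.09 (-0.06 to 0.25) and -0.04 (-0.20 to 0.12). The ratio of Slc27a5 to Baat ran from 1.64 to 2.40 in Ad-Ctrl, from 1.297 to 2.19 in Ad-shmGULL and from 1.36 to 1.91 in Ad-shmGULL+hGULL mice, which overlap.

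The transporters at the 2 faces of the hepatocyte had higher means in both groups given sh-mGULL than in controls, and neither passed the threshold. Slc10a1 (chr12:80953185-80968705), the uptake transporter, was at 337, 457, 517 and 417 TPM in Ad-Ctrl, at 283, 552, 569.8 and 554 TPM in Ad-shmGULL and at 552, 531, 496 and 521 TPM in Ad-shmGULL+hGULL mice. Ad-shmGULL mice 2 to 4 lay above every control and mouse 1 below every control. Ad-shmGULL minus Ad-Ctrl was 0.14 (SE 0.20, 95% interval -0.30 to 0.58, limma adjusted p = 0.747). It was 0.39 without mouse 1 (adjusted p = 0.0987), under the fold required. Ad-shmGULL+hGULL minus Ad-Ctrl was 0.30 (95% interval -0.14 to 0.73, adjusted p = 0.368, exact permutation p = 0.0571), with 3 of 4 mice above all controls, and Ad-shmGULL+hGULL minus Ad-shmGULL was 0.15 (-0.28 to 0.59).

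Abcb11 (chr2:69238282-69342616), the export pump whose promoter holds the match with 1 mismatch shown above, was at 197, 247, 289.8 and 215 TPM in Ad-Ctrl, at 243, 342, 247 and 316 TPM in Ad-shmGULL, and at 338, 286, 279 and 272 TPM in Ad-shmGULL+hGULL mice. The upper controls reached into the range of the other groups. Ad-shmGULL minus Ad-Ctrl was 0.27 (95% interval -0.03 to 0.58, limma adjusted p = 0.301) and Ad-shmGULL+hGULL minus Ad-Ctrl was 0.32 (0.01 to 0.62, limma P = 0.0436, adjusted p = 0.184, exact permutation p = 0.114). Relative to the median of all genes these values were 0.19 and 0.14. The change from Ad-shmGULL to Ad-shmGULL+hGULL was 0.04 (-0.26 to 0.35). The ratio of Slc10a1 to Abcb11 was 1.72 to 1.94 in Ad-Ctrl, 1.16 to 2.31 in Ad-shmGULL and 1.63 to 1.92 in Ad-shmGULL+hGULL mice.

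The receptor itself varied little between the mice of 2 groups. Nr1h4 (chr10:89454234-89533645) was at 202, 194, 210.1 and 195 TPM in Ad-Ctrl, at 161, 226, 208 and 236 TPM in Ad-shmGULL, and at 234, 237, 232 and 236 TPM in Ad-shmGULL+hGULL mice. All 4 Ad-shmGULL+hGULL mice lay above all 4 controls, while the Ad-shmGULL mice spread over both ranges. Means were 200.1 ± 7.54, 208 ± 33.2 and 235 ± 1.93 TPM (SD, n = 4). Ad-shmGULL+hGULL minus Ad-Ctrl was 0.23 on the log2 scale (SE 0.10, 95% interval 0.01 to 0.45, limma P = 0.0439, adjusted p = 0.185, exact permutation p = 0.0286).

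In that comparison 22.3% of all genes tested had 4 mice of one group entirely above or below the 4 of the other, and Nr1h4 stood 0.06 above the median gene. When the libraries were rescaled by median ratios the Nr1h4 difference was 0.03 (95% interval -0.17 to 0.22). In contrast, the limma adjusted p fell to 0.0291 with quality weights, 0.0345 with only the 2 groups compared and 0.0481 without Ad-shmGULL mouse 1. Ad-shmGULL minus Ad-Ctrl was 0.04 (-0.18 to 0.26), -0.07 with that rescaling and 0.16 (0.02 to 0.30) without Ad-shmGULL mouse 1, and Ad-shmGULL+hGULL minus Ad-shmGULL was 0.19 (-0.03 to 0.41).

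Nr0b2 (chr4:133553376-133556686), the corepressor induced by FXR, was at 68.9, 57.8, 60.5 and 85.2 TPM in Ad-Ctrl, at 80.9, 23.7, 47.3 and 51.0 TPM in Ad-shmGULL and at 31.9, 71.7, 70.2 and 78.4 TPM in Ad-shmGULL+hGULL mice. Ad-shmGULL mice 2 to 4 lay below every control and mouse 1 within the control range. Ad-shmGULL minus Ad-Ctrl was -0.53 (SE 0.34, 95% interval -1.26 to 0.21, limma P = 0.144, adjusted p = 0.416, exact permutation p = 0.200). Without Ad-shmGULL mouse 1 it was -0.79 and passed the study's threshold (adjusted p = 0.179). Ad-shmGULL+hGULL minus Ad-shmGULL was 0.35 (95% interval -0.38 to 1.08) and Ad-shmGULL+hGULL minus Ad-Ctrl -0.17 (-0.90 to 0.56), or 0.12 without Ad-shmGULL+hGULL mouse 1.

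The genes most like 3 of the members over the 12 mice were sought by the mean absolute difference of log2(TPM + 1) after each gene's own mean was removed, among all genes tested. For Cyp7b1, a search added after its values were seen, they were Plcxd2 (0.16), Lifr (0.18), the receptor for leukemia inhibitory factor, and Gpcpd1 (0.18), compared with a mean absolute deviation of 0.46 for Cyp7b1 itself. Plcxd2 had means of 90.8 ± 7.44, 51.7 ± 14.2 and 72.4 ± 11.6 TPM from Ad-Ctrl through Ad-shmGULL to the hGULL group (SD, n = 4). For Cyp7a1 (deviation 0.34) they were Gm30784 (0.18), Gm17823 (0.19) and Sp4 (0.19), and for Nr0b2 (0.41) Gm16551 (0.26), Cadm4 (0.26) and Cpsf4l (0.27). The differences for Cyp7a1 and Nr0b2 were not small beside the genes' own deviations, so no gene followed them closely.

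A wider list of 43 genes of bile acid biology, of which 38 were expressed highly enough to be tested, showed 3 higher and 0 lower after knockdown at the study's threshold. In Ad-shmGULL+hGULL minus Ad-Ctrl 3 were higher and 0 lower, and in Ad-shmGULL+hGULL minus Ad-shmGULL none passed in limma (2 had an unadjusted P under 0.05, Rxra at 0.24 and Atp8b1 at 0.26 on the log2 scale, and 0 in the exact permutation test). An unadjusted P under 0.05 in limma was found for 1757 of all 16378 genes tested in Ad-shmGULL+hGULL minus Ad-shmGULL. Of all genes, 5.35% were called higher after knockdown and 6.84% in Ad-shmGULL+hGULL minus Ad-Ctrl. The median log2 fold change of the 38 genes was 0.02, 0.10 and 0.13 in the order used above, beside 0.09, 0.09 and 0.17 for all genes.

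Of 12 further synthesis genes, Cyp46a1, a cholesterol hydroxylase best known from neurons, was the 1 that passed. It was low, at 2.52 to 3.31 TPM in Ad-Ctrl, 4.52 to 5.54 in Ad-shmGULL and 4.75 to 7.21 in Ad-shmGULL+hGULL mice, with both groups given sh-mGULL entirely above the controls. Such separation, in either direction, occurred in 8.99% of genes after knockdown and in 22.3% in Ad-shmGULL+hGULL minus Ad-Ctrl. Its log2 fold change was 0.65 (SE 0.13, limma adjusted p = 0.0210) after knockdown and 0.83 (SE 0.13, adjusted p = 0.0307) in Ad-shmGULL+hGULL minus Ad-Ctrl, with adjusted p up to 0.0682 and 0.122 in the alternatives. The remaining 11, among them Hsd3b7, Akr1d1, Amacr, Acox2 and Cyp2c70, did not pass in any comparison.

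Among 11 tested transporters, Slc51b passed in both groups against controls. It encodes the smaller subunit of the basolateral bile acid exporter, and was at 1.59, 0.00, 0.958 and 1.36 TPM in Ad-Ctrl, at 2.14, 7.38, 1.14 and 2.73 TPM in Ad-shmGULL and at 3.60, 4.73, 2.05 and 1.81 TPM in Ad-shmGULL+hGULL mice. All 4 Ad-shmGULL+hGULL mice exceeded the highest control, and 22.3% of all genes tested were fully apart, in either direction, in that comparison. The log2 fold changes of Slc51b were 1.03 (SE 0.41, limma adjusted p = 0.181, exact permutation p = 0.0857) and 1.06 (SE 0.41, adjusted p = 0.143). Each passed in 16 of 19 alternative settings. The knockdown call was lost with quality weights (0.86), without Ad-Ctrl mouse 2 (0.73) and without Ad-shmGULL mouse 2 (0.65), and the value was 1.95 with a pseudocount of 0.1. The other call was lost without Ad-Ctrl mouse 2 (0.76) and without Ad-shmGULL+hGULL mouse 1 (0.98) or 2 (0.87). Its partner subunit, Slc51a, was listed at 0 in 10 of the 12 mice and did not exceed 0.0703 TPM.

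Slc10a2, the sodium-dependent bile acid carrier of ileum and bile duct epithelium, rose in Ad-shmGULL+hGULL minus Ad-Ctrl by 0.60 on the log2 scale (SE 0.16, limma adjusted p = 0.0656). It passed in 18 of 20 alternative settings, but not with median-of-ratios scaling (0.40, adjusted p = 0.212) or without Ad-shmGULL+hGULL mouse 2 (0.48, adjusted p = 0.196). Over the 20 settings its limma adjusted p ranged from 0.0106 to 0.212 and was under 0.05 in 5. It was at 26.2, 20.2, 19.0 and 19.5 TPM in Ad-Ctrl, at 26.5, 38.4, 23.1 and 31.7 TPM in Ad-shmGULL and at 31.1, 41.1, 28.1 and 30.5 TPM in Ad-shmGULL+hGULL mice. The last group lay above all controls, and 22.3% of all genes tested were fully apart, in either direction, in that comparison. After knockdown the Slc10a2 difference was 0.46 (limma adjusted p = 0.131) and did not pass, but passed in 4 of 20 settings, among them without Ad-shmGULL mouse 1 (0.51, adjusted p = 0.126). The summed level of 6 cholangiocyte markers was 68.2 to 105 TPM in Ad-Ctrl, 57.0 to 141 in Ad-shmGULL and 83.3 to 118 in Ad-shmGULL+hGULL mice, with Cftr and Krt7 never above 0.605 TPM. Most of that sum was Spp1, at 75.2, 80.8 and 94.2 TPM on average in the 3 groups. Another of the 6, Sox9, passed the study's threshold after knockdown, at means of 5.18 and 8.50 TPM (0.64 on the log2 scale, limma adjusted p = 0.159). The other tested cholangiocyte markers did not pass after knockdown, with Krt19 at -0.08, Epcam at -0.04 and Spp1 at 0.02. The part of these markers in the Slc10a2 and Slc51b results was not tested.

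None of 12 tested receptors and regulators, among them Rxra, Hnf4a, Nr5a2, Fgfr4, Klb and Nr1h3, passed the study's threshold in limma in any comparison (1 had an unadjusted P under 0.05 after knockdown, 1 in Ad-shmGULL+hGULL minus Ad-shmGULL and 0 in Ad-shmGULL+hGULL minus Ad-Ctrl). Over all 16378 genes tested, the counts with an unadjusted P under 0.05 were 3316, 1757 and 4149 in the same order. The intestinal hormone gene Fgf15 was listed at 0 in every mouse. Of 6 tested other FXR targets, 3 of them also in the lists above, Pltp, which moves phospholipid between lipoproteins, was higher after knockdown by 0.96 (SE 0.28, limma adjusted p = 0.0795). It was at 84.7, 43.1, 42.5 and 59.0 TPM in Ad-Ctrl, at 90.4, 119.7, 189.8 and 66.5 TPM in Ad-shmGULL and at 85.1, 86.4, 71.2 and 78.1 TPM in Ad-shmGULL+hGULL mice. Of the Ad-shmGULL mice, 3 exceeded all controls, and Ad-shmGULL+hGULL minus Ad-shmGULL was -0.43 (adjusted p = 0.583). Against Ad-Ctrl the Ad-shmGULL+hGULL mice gave 0.53 (SE 0.28, limma adjusted p = 0.253), which did not pass, although it did in 5 of 20 alternative settings.

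**Figure D4:**
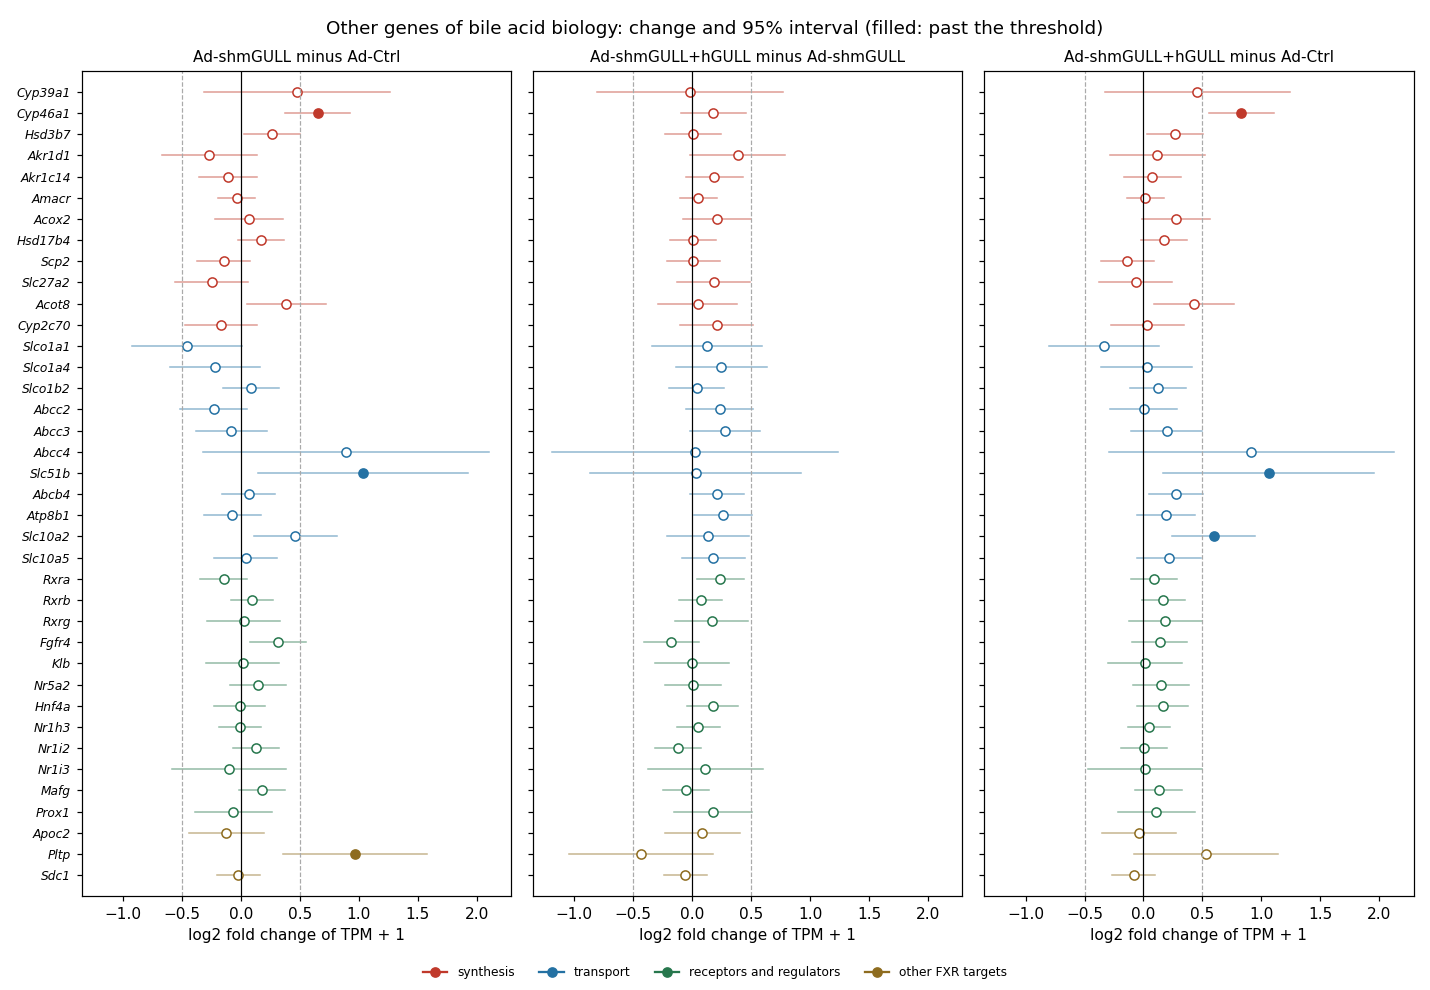
Points give the log2 fold change of TPM + 1 (horizontal axis) of 38 other genes of bile acid biology (vertical axis, colored by list) in the 3 comparisons, with 95% intervals from limma, filled where the study's threshold was passed. Cyp46a1, Slc51b and Pltp are filled after knockdown, Cyp46a1, Slc51b and Slc10a2 in Ad-shmGULL+hGULL minus Ad-Ctrl, and none in Ad-shmGULL+hGULL minus Ad-shmGULL.

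Markers of liver cell types were compared beside these results. The 6 hepatocyte markers summed to 74859 to 110096 TPM in Ad-Ctrl, 79648 to 93919 in Ad-shmGULL and 67642 to 81157 in Ad-shmGULL+hGULL mice. Most of that sum was Alb. At the study's threshold 2 of the 6, Tat (-0.80 and -0.81) and Apoa1 (-0.60 and -0.60), were lower than in Ad-Ctrl in both other groups. No hepatocyte marker had a limma adjusted p under 0.05. Against Ad-Ctrl, 2 were higher and 4 lower in each group. Those higher were Alb (0.02) and Ttr (0.14) after knockdown, and Serpina1c (0.16) and Tdo2 (0.01) with hGULL added. For Alb (-0.23, limma adjusted p = 0.706) and Ttr (-0.39, limma adjusted p = 0.458), all 4 Ad-shmGULL+hGULL mice lay below all 4 Ad-shmGULL mice, but neither passed the threshold. The share of all genes fully apart between these groups was not counted, so this separation cannot be called unusual. In that comparison 3 markers were higher and 3 lower. The 6 endothelial markers summed to 108 to 187, 172 to 239 and 174 to 209 TPM, with Stab2 higher after knockdown by 0.54 (limma adjusted p = 0.0476). Against Ad-Ctrl, 6 endothelial markers were higher and 0 lower in each of the other groups. Their median log2 fold change was 0.39 after knockdown and 0.32 with hGULL added, beside 0.09 and 0.17 for all genes. Between the groups given sh-mGULL, 3 were higher and 3 lower. The 6 Kupffer cell markers summed to 360.1 to 610.5, 318 to 537 and 378 to 509.7 TPM. Only Marco among them passed the study's threshold, lower than in Ad-Ctrl in both other groups (-1.04 and -0.93, limma adjusted p = 0.164 and 0.169). Of the 6, 2 were higher and 4 lower after knockdown, and 1 was higher and 5 lower in Ad-shmGULL+hGULL minus Ad-Ctrl. Adgre1 was higher in both (0.26 and 0.20). Stellate cell markers (75.1 to 137, 109 to 141 and 107 to 121 TPM), T and NK cell markers (18.0 to 59.9, 16.6 to 40.8 and 33.9 to 46.8), B cell markers (2.13 to 3.10, 2.06 to 5.47 and 2.11 to 3.16) and neutrophil markers (100.5 to 234, 118 to 272 and 88.4 to 139) overlapped between groups. In Ad-shmGULL+hGULL minus Ad-shmGULL, S100a8 and S100a9 were lower and Gzmb was higher at the study's threshold. Bile acid synthesis follows the time of day, and none of 11 tested clock genes passed the threshold in limma in any comparison (1 had an unadjusted P under 0.05 after knockdown, Tef, 0 between the groups given sh-mGULL, and 2 in Ad-shmGULL+hGULL minus Ad-Ctrl, Per2 and Per3, with the same counts in the exact permutation test). Among all 16378 genes tested, 3316, 1757 and 4149 had an unadjusted P under 0.05 in limma in these comparisons, in the same order. The part of cell composition in the values of the 10 genes was not tested.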

How the data were processed

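Strand-specific libraries were made from total liver RNA of 12 mice. According to the submitters' processing notes and the paper's methods, the authors trimmed reads with fastp 0.23.2, checked them with FastQC 0.11.8, aligned them with HISAT2 2.2.1.0 to GRCm38.p6, counted them on GENCODE genes with featureCounts (Subread 2.0) and deposited TPM values. Each library sums to 1000000 TPM, so the depth is unknown and no counting interval is given. Precision comes from the spread of 4 mice per group, grouped by the sample labels. The labels and the design text give an intravitreal injection, while the methods describe retro-orbital delivery of adenoviruses.

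TPM were analysed as log2(TPM + 1) with limma 3.58.1 in R 4.3.3, on 16378 genes averaging 1 TPM or more (all 10 members among them), in 1 model of the 3 groups with variances moderated by empirical Bayes toward a trend on the mean. Fold changes on this scale understate those of low genes. Adjusted p are Benjamini-Hochberg values over all genes tested, and permutation tests (scipy) were exact and unadjusted. The procedure was tested on simulated data. The alternatives tried were no filter, a filter at 5 TPM, a pseudocount of 0.1, median-of-ratios scaling, only the 2 groups compared, no trend, array quality weights, a replicate block and leaving out each mouse, and the within-mouse ratios and the search for genes like Cyp7b1 were added after seeing the data. The members and lists were chosen with earlier results of these data known. Named were all members, the genes of the wider lists past an adjusted p of 0.05 or the study's threshold in any comparison, and the 3 tested genes most like Cyp7a1 and Nr0b2. Gene positions and promoters are RefSeq, GRCm38.p6, and promoters were searched on both strands.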

Additional observations from a re-analysis of the deposited data

Results flagged for a closer look

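In 3 cases 1 value lay far from the other 3 mice of their group, among 54 groups of 4 mice checked, and chance alone sets about 1 in 20 apart at this limit. Cyp7b1 in Ad-shmGULL was at 209, 206, 247 and 503 TPM, and the gap between mouse 4 and the next mouse was 0.862 of the group's range. Slc10a1 in Ad-shmGULL was at 283 TPM in mouse 1 and at 552 to 569.8 TPM in the other 3, a gap of 0.939 of the range. Slc10a2 in Ad-Ctrl was at 26.2 TPM in mouse 1 and at 19.0 to 20.2 TPM in the other 3, a gap of 0.835 of the range.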

How the results depend on the processing

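Of the 10 members, 2 passed the study's threshold in Ad-shmGULL+hGULL minus Ad-Ctrl with median-of-ratios scaling (Cyp7b1 and Slc27a5) and 1 with array weights (Cyp7b1), compared with 0 as reported. Between Ad-shmGULL+hGULL and Ad-shmGULL 0 passed with either, compared with 1. Leaving out 1 mouse at a time gave 1 to 2 members after knockdown and 0 to 1 in Ad-shmGULL+hGULL minus Ad-shmGULL. For the wider list, a mean of at least 5 TPM left 1 gene after knockdown (Pltp) and 1 in Ad-shmGULL+hGULL minus Ad-Ctrl (Slc10a2), since fewer genes are then tested. Leaving out 1 mouse gave 2 to 6 after knockdown, 0 to 1 in Ad-shmGULL+hGULL minus Ad-shmGULL and 2 to 5 in Ad-shmGULL+hGULL minus Ad-Ctrl. The cause of the other shifts was not tested.

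Some differences near 0 turned sign. After knockdown these were Nr1h4 with median-of-ratios scaling (-0.0685) and Cyp8b1 with array weights (0.0315). In Ad-shmGULL+hGULL minus Ad-shmGULL they were Abcb11 (-0.0502) and Baat (-0.0007) with median-of-ratios scaling, and Abcb11 (-0.0143) and Cyp7a1 (-0.0286) with array weights. Without 1 mouse, the ranges that crossed 0 after knockdown were -0.53 to 0.11 for Cyp7a1, -0.14 to 0.10 for Cyp8b1 and -0.0237 to 0.158 for Nr1h4. In Ad-shmGULL+hGULL minus Ad-shmGULL they were -0.14 to 0.50 for Cyp7a1, -0.14 to 0.10 for Cyp8b1, -0.14 to 0.0189 for Cyp27a1, -0.25 to 0.0082 for Slc27a5, -0.0908 to 0.24 for Slc10a1 and -0.0304 to 0.13 for Abcb11. Between Ad-shmGULL+hGULL and Ad-Ctrl they were -0.18 to 0.0612 for Cyp7a1, -0.12 to 0.0209 for Cyp8b1 and -0.30 to 0.12 for Nr0b2.

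Over all genes, 69.9%, 77.6% and 91.4% of calls in the 3 comparisons were higher, and 51.6%, 60.5% and 66.7% with median-of-ratios scaling, which left 721 calls in the last in place of 1226. Genes with an adjusted p under 0.05 after knockdown numbered 529, but 236 without the filter, 344 without the trend and 33 with only the 2 groups fitted. Between Ad-shmGULL+hGULL and Ad-Ctrl they numbered 352, but 9, 35 and 1693 in the same settings, 568 at a mean of at least 5 TPM, 11 with median-of-ratios scaling, 3184 with array weights and 71 with the replicate block. Leaving out 1 mouse gave 165 to 1057 and 3 to 1068.

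Mice that share a number in different groups showed no clear common deviation (r from -0.24 to 0.15, over 0.1 in 2 of 12 pairs, and 4 of 12 mice correlated best with their own number). With 4 mice per group, such correlations cannot exclude a factor shared by mice of the same number. With the replicate block, Cyp7b1 stayed at -1.09 after knockdown (limma adjusted p = 0.0186), the block changed no call of a member, and 1275, 516 and 1239 genes were called. The unknown depth limits low genes such as Slc51b and Cyp46a1 most.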
